A study of Rattus norvegicus with 12 samples.

Results

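Axon guidance genes encode the cues that steer growing axons and the receptors that read them. A name search of the rat array found 71 of them among 35609 genes, measured by 102 of 41012 probes, each probe present as a single spot. The search took every probe whose gene name begins with Sema, Ntn, Slit, Robo, Plxn, Efna, Efnb, Epha or Ephb, or with Unc5 followed by a further digit or letter, together with Nrp1, Nrp2 and Dcc, and the brightest probe stood for each gene. It returned 30 receptors, 34 ligands and 7 genes that only share a name stem with a guidance family, which are Slitrk1, Slitrk2, Slitrk3, Slitrk5, Slitrk6, Unc50 and Unc5cl. Some relatives carry other names in the files and were therefore not included, among them Epha4, Ephb4, Ntng1 and Ntn4.

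The 12 arrays measured dorsal striatum of male rats, and the study asked how L-DOPA, stimulation and their combination alter striatal gene expression after dopamine loss. Every animal had received 9 µg of 6-OHDA (6-hydroxydopamine, a toxin taken up by dopamine neurons) in 4.5 µL, injected on the left into the substantia nigra pars compacta, so the striatum of all 4 groups was denervated and no unlesioned tissue was on the arrays. The 6-OHDA group was otherwise untreated. The HFS group received continuous high-frequency stimulation of the subthalamic nucleus on the lesioned side for 5 days (130 Hz, 80 µs pulses, 60 µA) through an implanted electrode. Only the stimulated groups were implanted, so electrode and current cannot be told apart. In the DOPA group, L-DOPA, the dopamine precursor used to treat Parkinson's disease, was injected at 25 mg/kg with 12.5 mg/kg of benserazide, which blocks its conversion outside the brain. These rats had 2 injections per day 12 h apart for 19 days. The DOPA/HFS group received both, with stimulation during the last 5 days. Each group held 3 arrays, numbered 1 to 3 in the labels, and each array held punches of dorsal striatum pooled for RNA extraction. Per the study's methods each group held 3 animals and each sample had an array of its own, so the 3 arrays are biological replicates. The sources used here give neither strain nor age.

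In development, netrins, Slits, semaphorins and ephrins attract or repel growth cones through dedicated receptors. Netrins act through Dcc and the Unc5 proteins, Slits through the Robo receptors, secreted class 3 semaphorins through a neuropilin and plexin complex, membrane semaphorins mostly through plexins directly, and ephrins through Eph receptor tyrosine kinases. In the forebrain these pairs are best known for laying out the corticostriatal, striatonigral and nigrostriatal pathways, and in the adult many of them remain expressed at synapses, where they have been linked to spine shape and plasticity.

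Values below are quantile-normalized log2 intensities, on which a difference of 1 is a 2-fold change. A level belongs to its own probe and is not comparable with that of another gene. The share of spots well above background ran from 50.5% to 63.2% per array. The scanner software marked 4175 outlier spots on DOPA/HFS 3 against 2 to 25 on the other arrays, and these spots were dropped, so Epha5, Ephb2 and Sema3f have no value on that array and their fits used the remaining 11. The mean level of 15 projection neuron markers was between 13.58 and 13.93 on all arrays. Choroid plexus markers (the 8 of 15 listed genes with a value on every array) averaged 6.64 to 7.01 in 6-OHDA, 8.66 to 11.40 in HFS, 6.27 to 9.78 in DOPA and 6.40 to 7.68 in DOPA/HFS. The part of this difference in the values below was not tested.

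Of the 71 guidance genes, 57 were well above background on at least 5 of the 12 arrays and were tested, 42 were above it on all 12, and 10 on none. By role, 26 of 30 receptors and 25 of 34 ligands were tested. The most complete families were the plexins (7 of 8), the EphB receptors (4 of 4), the Unc5 and Dcc netrin receptors (5 of 5), the membrane semaphorins (12 of 13) and the Slits (3 of 3). Class 3 semaphorins were the least complete of the larger families, with 4 of 7. The 14 genes that were not tested were Efna4, Efna5, Efnb2, Epha2, Nrp2, Ntn1, Ntng2, Plxna4, Robo3, Sema3a, Sema3c, Sema3d, Sema4b and Unc5cl. A gene missing from the tested set was not well above background with these probes, which does not show that it was unexpressed.

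No guidance gene was called in any of the 6 contrasts, which were the 3 comparisons with 6-OHDA, the average effect of L-DOPA (6 arrays with it against 6 without), the average effect of stimulation, and their interaction. A call required a limma adjusted p under 0.1 across all 20460 genes tested and a fold above 1.2 or below 0.8. Across all genes, the share called was 0% for HFS, 0.00489% for DOPA, 0% for DOPA/HFS, 0.00489% for the L-DOPA effect, and 0% for both the stimulation effect and the interaction. The lowest limma adjusted p among the guidance genes was 0.998 in HFS, 0.911 for stimulation and 1 in the other contrasts.

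At an unadjusted limma p under 0.05, 0 of 57 guidance genes passed in HFS, against 2.34% of all genes (1.21% higher and 1.13% lower). In DOPA 4 passed (2.59% of all genes, 1.32% higher and 1.27% lower), namely Unc5d and Slitrk3 above 6-OHDA and Plxnd1 and Sema3b below it. In DOPA/HFS 1 passed (Unc5d, with 2.76% of all genes, 0.831% higher and 1.93% lower). For the average L-DOPA effect 1 passed (Unc5d, with 2.73% of all genes, 1.24% higher and 1.49% lower), and for stimulation 0 passed (4.35% of all genes, 1.67% higher and 2.68% lower). For the interaction 3 passed (5.26%, beside 1.98% of all genes, 0.748% positive and 1.24% negative), namely Slitrk3, Slitrk2 and Ephb6, all negative. Slitrk3 and Slitrk2 only share a name stem with a guidance family. Among the 26 receptors and 25 ligands tested, Ephb6 alone passed for the interaction, so the share of 5.26% is not read as an excess of guidance genes. Slitrk3 counts by name stem only in DOPA as well. Unc5d entered the test only because its treated arrays were above background, so its passes follow from the detection filter and are not read as support. Without it 3 guidance genes passed in DOPA, and 0 in DOPA/HFS and for L-DOPA. Since the 3 comparisons share the same 6-OHDA arrays, a gene that recurs in them is not counted as repeated evidence.

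The medians of the guidance genes lay close to those of all genes. In the order HFS, DOPA and DOPA/HFS, their median log2 differences from 6-OHDA were 0.03, 0.02 and -0.01, beside 0.01, -0.01 and -0.01 over all genes. Of the 57, 33 stood above 6-OHDA with HFS, 29 with DOPA and 28 with the combination. Where 3 differences are given for a gene below, they follow this same order. Of the total variation over the 12 arrays, a median of 20.7% lay between the groups for guidance genes and 21.1% for all genes. Arrays grouped at random also have part of their variation between groups, so these shares alone show no treatment effect. The median 95% interval for a difference from 6-OHDA reached 0.52 log2 units to either side (0.32 to 1.37 across the 57 genes). For a typical member with 3 arrays per group, a smaller measured difference was therefore not separable from no change, even without adjustment. A call, which was adjusted over all genes, needed a larger difference. The absence of calls therefore does not exclude changes above 0.52.

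**Figure D1:**
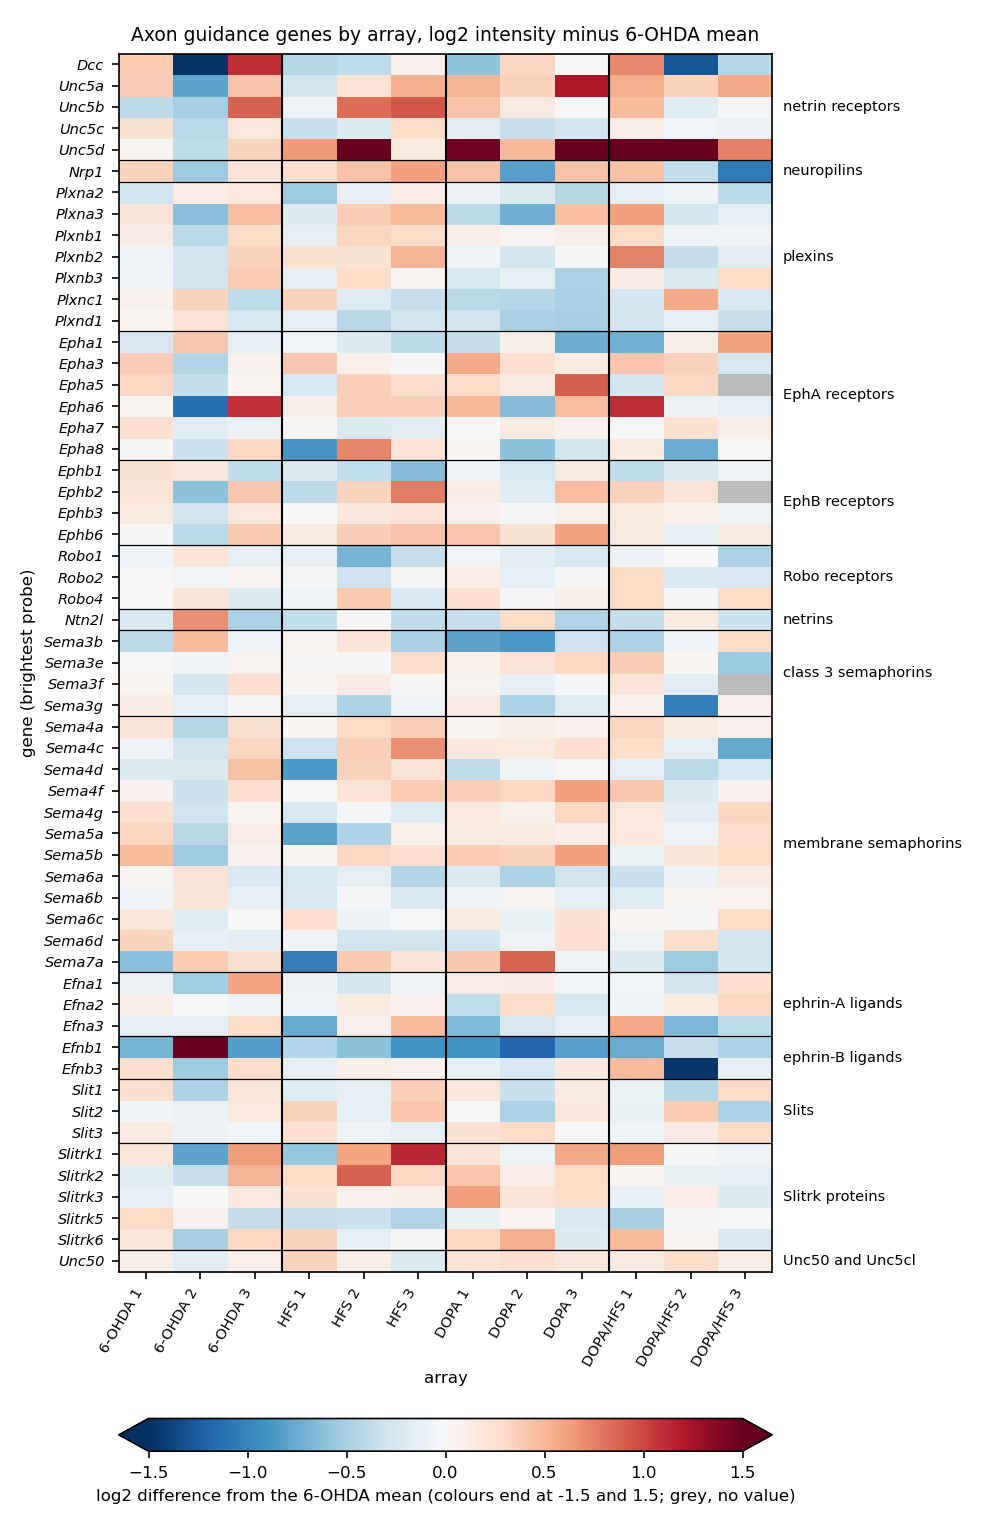
Log2 difference from the 6-OHDA mean for the 57 tested guidance genes (rows, grouped by family) on each of the 12 arrays (columns, grouped by treatment), red above and blue below, with grey for no value. Unc5d is above the 6-OHDA mean on all 9 treated arrays, and 6-OHDA 2 is a mostly blue column with a dark red cell for Efnb1.

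Array 6-OHDA 2 had the lowest value of all arrays for 20 of the 54 guidance genes with a complete set of values, and the highest for 7. The other arrays held the lowest value of 0 to 6 genes each. Many differences below are therefore also given by slide or without this array. Replicates with the same number lay on the same slide with 1 array of each group.

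**Figure D2:**
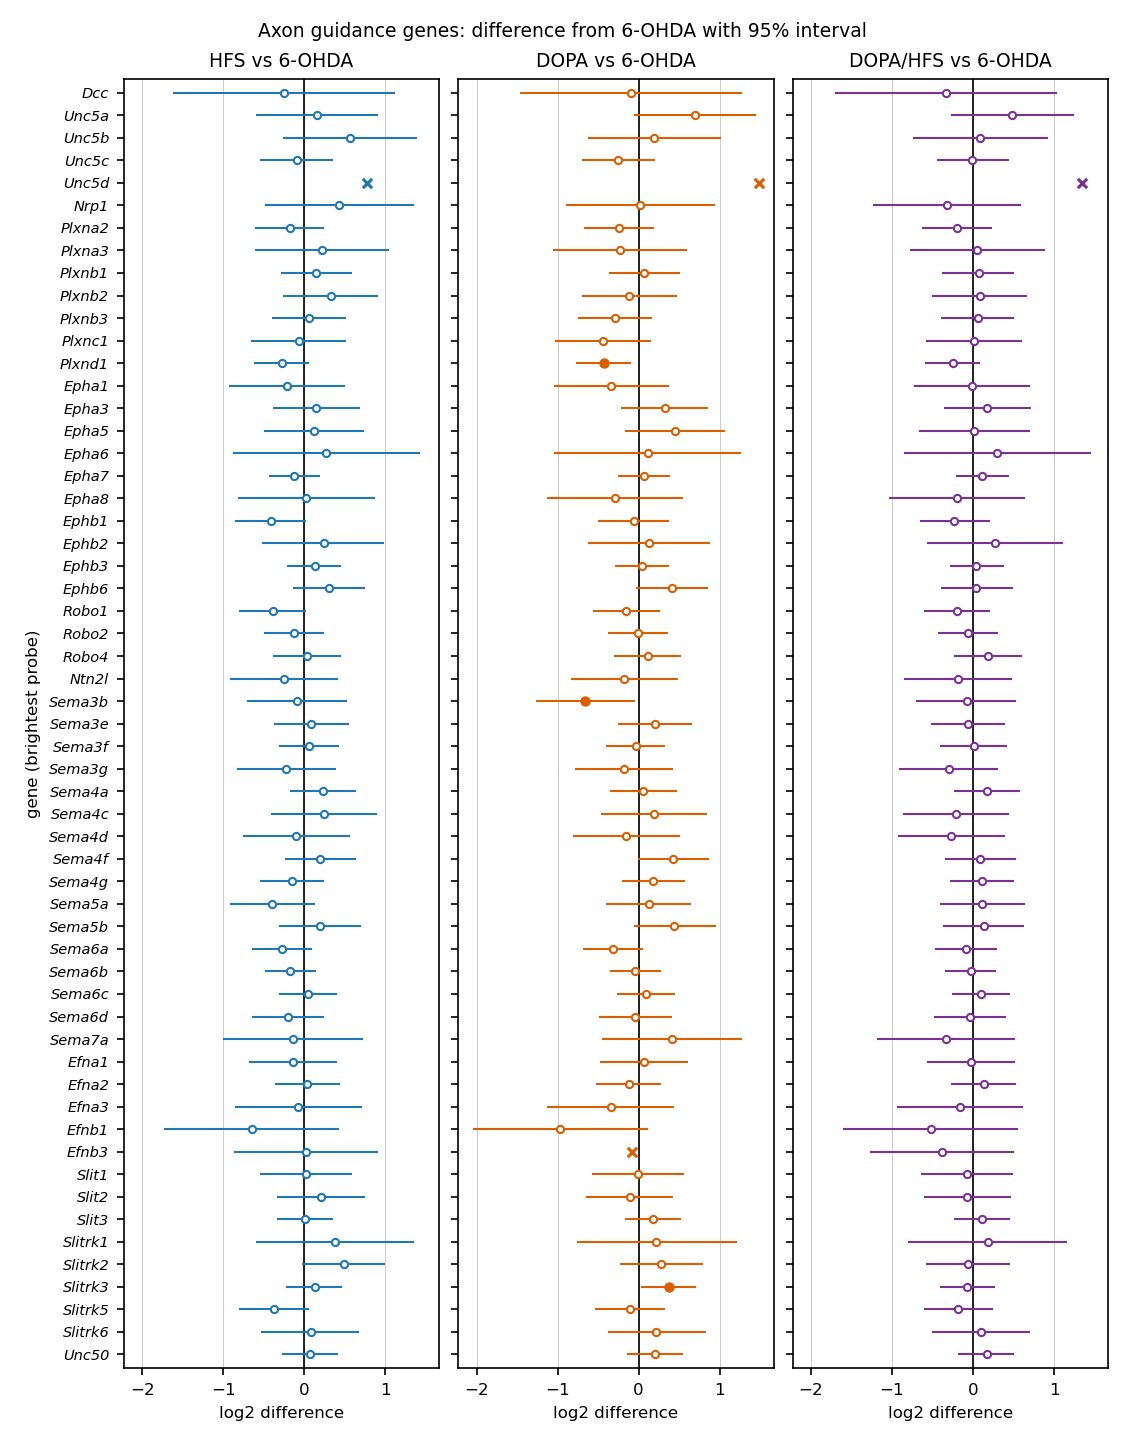
Fitted log2 difference from 6-OHDA (points) with its 95% interval (lines) for each tested guidance gene in HFS, DOPA and DOPA/HFS, 3 arrays per group. Filled points have an unadjusted limma p under 0.05, which are Plxnd1, Sema3b and Slitrk3 in DOPA, and crosses without an interval mark Unc5d and, in DOPA, Efnb3, which were not above background on any array of one group. No gene shown passed the adjusted threshold.

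Among the netrin receptors, Unc5d was above background on every treated array and on no 6-OHDA array. Unc5d encodes a repulsive netrin receptor known from developing cortex. It read 4.75, 4.33 and 5.04 in 6-OHDA, 5.35, 6.22 and 4.85 in HFS, 6.17, 5.20 and 7.23 in DOPA, and 6.22, 6.47 and 5.46 in DOPA/HFS. All DOPA and all DOPA/HFS values lay above all 6-OHDA values, whereas HFS 3 lay within the 6-OHDA range.

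The Unc5d probe was well above background on 0 of 3 6-OHDA arrays and on 9 of 9 treated arrays, so it entered the test only through the treated groups. Background was judged on each array, and 4.85 counted as above it on HFS 3 and 5.04 did not on 6-OHDA 3. Measured against the detection level of each 6-OHDA array on the quantile-normalized signal, the mean of Unc5d was 2.19-fold higher in DOPA. It was 1.97-fold higher in DOPA/HFS and 1.32-fold higher in HFS. These are lower bounds on the fold between measured means and carry no sampling error, and HFS 3 itself lay below 6-OHDA 3. The measured differences had limma adjusted p of 1 in DOPA, 1 in DOPA/HFS and 0.998 in HFS.

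These bounds hold for that processing only. The measured means, with 6-OHDA at background, differed by 1.49 log2 units in DOPA and 1.34 in DOPA/HFS, and the same quantities were 0.57 and 0.47 with normexp background correction and 0.61 and 0.43 in the deposited table, which are below the bounds. By slide the measured difference was 1.42, 0.86 and 2.20 in DOPA, 1.47, 2.14 and 0.42 in DOPA/HFS, and 0.60, 1.89 and -0.19 in HFS, so its size varied widely and its sign turned on slide 3 of HFS. In DOPA it was 0.97 without DOPA 3.

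A second Unc5d probe did not pass detection (2 of 12 arrays) and differed by -0.10 in DOPA and -0.43 in DOPA/HFS, so the direction seen with the first probe was not seen with the second, whose readings were mostly at background. Unc5d is also known as a gene of cortical neurons, and the 6 of 12 cortical markers that were measured averaged 8.15 to 9.25 in 6-OHDA, 7.99 to 9.49 in HFS, 8.56 to 9.57 in DOPA and 8.78 to 8.91 in DOPA/HFS. These ranges overlap in every comparison. All 6 stood above 6-OHDA in DOPA (median 0.26), as did 5 of 6 in HFS (median 0.22) and in DOPA/HFS (median 0.14). DOPA 3 held both the highest cortical mean, 9.57, and the highest Unc5d reading, 7.23. The next highest cortical means were 9.49 on HFS 3 and 9.25 on 6-OHDA 1, where Unc5d read 4.85 and 4.75. The part of cortical tissue in the Unc5d readings was not tested, and the remaining markers of that list were not well above background on enough arrays to be tested. In bulk tissue, more cells that carry a transcript and more transcript per cell cannot be told apart.

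Unc5a, another repulsive netrin receptor, read 6.48, 5.32 and 6.54 in 6-OHDA, 5.84, 6.32 and 6.64 in HFS, 6.62, 6.46 and 7.34 in DOPA, and 6.65, 6.46 and 6.68 in DOPA/HFS. The 6-OHDA arrays overlap every treated group, and 6-OHDA 2 is the low one. Its average L-DOPA difference was 0.51 (SE 0.24, limma p = 0.0588, adjusted p = 1, exact permutation p = 0.0541), with 0.47, 0.64 and 0.42 by slide and 0.31 without 6-OHDA 2. In DOPA/HFS it was 0.48 (SE 0.34, limma adjusted p = 1), with 0.17, 1.14 and 0.14 by slide and 0.09 without 6-OHDA 2. In DOPA the slides gave 0.14, 1.14 and 0.80.

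Dcc, the attractive netrin receptor that guides commissural and dopaminergic axons, read 5.46, 3.60 and 6.19 in 6-OHDA, 4.65, 4.70 and 5.14 in HFS, 4.48, 5.40 and 5.07 in DOPA, and 5.80, 3.79 and 4.65 in DOPA/HFS. It was above background on 7 of 12 arrays, and its 6-OHDA values alone span all treated arrays. The differences were -0.25, -0.10 and -0.34 (SE 0.62 each), and the 95% intervals reached from -1.71 to 1.27 between them.

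Unc5c, which acts with Dcc in repulsion, read 7.80, 7.17 and 7.73 in 6-OHDA, 7.22, 7.36 and 7.85 in HFS, 7.41, 7.23 and 7.30 in DOPA, and 7.67, 7.53 and 7.48 in DOPA/HFS. Each treated group overlapped 6-OHDA, while all DOPA arrays lay below all DOPA/HFS arrays, the nearest being 7.41 and 7.48. The differences of Unc5c from 6-OHDA were -0.09, -0.25 and -0.01 (SE 0.2). Unc5b, the vascular member of the family, differed by 0.57, 0.19 and 0.09 (SE 0.38). The netrin ligand Ntn1 was not above background on any array. The only netrin tested, the netrin-2-like gene Ntn2l, differed from 6-OHDA by -0.25, -0.18 and -0.19 (SE 0.3).

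The semaphorin receptors were led by Plxnd1, a plexin known, with its ligand Sema3e, to limit thalamostriatal synapses on direct-pathway neurons. Plxnd1 read 12.38, 12.57 and 12.09 in 6-OHDA, 12.22, 11.93 and 12.06 in HFS, 12.05, 11.86 and 11.85 in DOPA, and 12.07, 12.22 and 12.01 in DOPA/HFS. Every DOPA array lay below every 6-OHDA array, the nearest being 12.05 and 12.09, while the HFS and DOPA/HFS arrays overlapped 6-OHDA.

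Plxnd1 differed by -0.43 in DOPA (SE 0.16, 95% interval -0.77 to -0.09, limma p = 0.0179, adjusted p = 1, exact permutation p = 0.1), a fold of 0.741, with -0.34, -0.71 and -0.25 by slide. The same quantity was -0.28 in HFS (limma p = 0.0988) and -0.25 in DOPA/HFS (limma p = 0.133), each with an exact permutation p of 0.2. The interaction was 0.46 (SE 0.22, limma adjusted p = 1), and the DOPA difference shrank to -0.32 without 6-OHDA 2. A second Plxnd1 probe gave -0.38 in DOPA, 0.05 in HFS and -0.08 in DOPA/HFS. Although both probes stood lower in DOPA, their values over the 12 arrays correlated at r = -0.02. The Plxnd1 ligand Sema3e differed by 0.09, 0.20 and -0.06 and was above background on 8 arrays.

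In DOPA 6 of 7 plexins stood below 6-OHDA, with differences from -0.44 to 0.07, while in DOPA/HFS 5 of 7 stood above it, from -0.25 to 0.08. Averaged over both stimulation states, all 7 were lower on the 6 arrays with L-DOPA than on the 6 without, by -0.20 to -0.01. Of all genes, 47.7% were higher in DOPA and 45.4% for the L-DOPA average, and none of the 7 plexins passed the adjusted threshold.

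The marker lists of glial cells did not all move the same way. For the L-DOPA average 11 of 12 oligodendrocyte markers were lower (median -0.11) and 7 of 7 ependymal markers (median -0.44), none of them called. By contrast, 7 of 9 astrocyte markers (median 0.06) and 11 of 12 microglia markers (median 0.09) were higher, also without a call. The means used only markers with a value on every array, 6 ependymal and 11 oligodendrocyte ones. The ependymal mean was 7.11 to 8.90 in 6-OHDA, 8.52 to 9.04 in HFS, 7.32 to 8.05 in DOPA and 8.03 to 8.67 in DOPA/HFS, and the oligodendrocyte mean 12.11 to 12.54 over all arrays. The part of these cells in the plexin values was not tested.

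Plxnc1, the Sema7a receptor, read 10.22, 10.48 and 9.77 in 6-OHDA, 10.49, 9.96 and 9.80 in HFS, 9.75, 9.72 and 9.66 in DOPA, and 9.86, 10.72 and 9.91 in DOPA/HFS. The DOPA arrays lay below all 6-OHDA arrays, though 9.75 and 9.77 are close, and the other groups overlapped. Its difference in DOPA was -0.44 (SE 0.27, limma p = 0.127, adjusted p = 1, exact permutation p = 0.1), and a second Plxnc1 probe gave -0.40. On that second probe the DOPA arrays overlapped 6-OHDA. The probes correlated at r = 0.09 over the arrays and gave -0.07 and 0.52 in HFS. Plxna4 was not above background on any array.

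Plxnb3, a plexin expressed by oligodendrocytes, read 8.74, 8.51 and 9.19 in 6-OHDA, 8.66, 9.1 and 8.85 in HFS, 8.55, 8.68 and 8.33 in DOPA, and 8.93, 8.61 and 9.08 in DOPA/HFS. The arrays overlap, with DOPA the lowest group. Its average stimulation difference was 0.20 (SE 0.15, limma adjusted p = 0.911, exact permutation p = 0.195), with 0.15, 0.26 and 0.20 by slide.

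Nrp1, the Sema3a co-receptor, read 5.76, 4.87 and 5.61 in 6-OHDA, 5.66, 5.85 and 6.04 in HFS, 5.85, 4.61 and 5.85 in DOPA, and 5.86, 5.05 and 4.36 in DOPA/HFS. These groups overlap, and the probe was above background on 7 arrays. The differences were 0.43, 0.02 and -0.32 (SE 0.42). Nrp2 was above background only on HFS 1, where it read 4.88 beside 2.40 to 2.75 on the other 11 arrays, so the reading rests on a single spot. Sema3a, the classic repellent ligand of Nrp1, was not above background on any array.

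The Eph receptors transmit contact repulsion and act in both directions between cells. Ephb6, a member that lacks kinase activity, read 10.45, 10.03 and 10.82 in 6-OHDA, 10.56, 10.80 and 10.86 in HFS, 10.85, 10.66 and 11.03 in DOPA, and 10.58, 10.30 and 10.56 in DOPA/HFS. The 3 DOPA values lay above all 3 DOPA/HFS values, but the 6-OHDA arrays overlapped both. The interaction was -0.67 (SE 0.29, 95% interval -1.30 to -0.05, limma adjusted p = 1), with -0.37, -1.13 and -0.51 by slide and -0.47 without 6-OHDA 2. Against 6-OHDA the difference in DOPA was 0.41 (SE 0.2, limma p = 0.0653, exact permutation p = 0.2).

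Ephb1, which takes part in the sorting of crossed and uncrossed axons and in nigrostriatal mapping, read 11.37, 11.31 and 10.76 in 6-OHDA, 10.94, 10.77 and 10.49 in HFS, 11.08, 10.88 and 11.28 in DOPA, and 10.76, 10.92 and 11.07 in DOPA/HFS. HFS held the lowest group mean, but 6-OHDA 3 lay among its arrays. Ephb1 had the lowest p of the guidance genes for stimulation, at -0.29 (SE 0.14, limma p = 0.0644, adjusted p = 0.911, exact permutation p = 0.0628), with -0.37, -0.25 and -0.24 by slide. In HFS alone it differed by -0.41 (SE 0.2, limma p = 0.0614, exact permutation p = 0.3). A second Ephb1 probe gave -0.11 in HFS and correlated with the first at r = -0.40 over the arrays.

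Epha5, an ephrin-A receptor of striatal and limbic circuits, read 8.63, 7.96 and 8.36 in 6-OHDA, 8.06, 8.68 and 8.58 in HFS, 8.61, 8.46 and 9.22 in DOPA, and 8.03 and 8.63 on the usable DOPA/HFS arrays. The groups overlap. The DOPA difference was 0.45 (SE 0.28, limma adjusted p = 1), the second Epha5 probe gave 0.38, and the probes correlated at r = 0.84, the closest of all pairs. Over the 6 EphA receptors tested the differences from 6-OHDA ran from -0.21 to 0.27 with HFS, from -0.34 to 0.45 with DOPA and from -0.20 to 0.30 with DOPA/HFS.

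The ephrins were sparsely measured. Efnb3, a midline and striatal boundary ligand, read 5.33, 4.54 and 5.34 in 6-OHDA, 4.95, 5.17 and 5.14 in HFS, 4.94, 4.82 and 5.23 in DOPA, and 5.55, 3.61 and 4.92 in DOPA/HFS. It was above background on 5 arrays and on none of the DOPA arrays, and the readings overlap. With 1 array above background in 6-OHDA and 1 in DOPA/HFS, no size is given for its differences.

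Efnb1 was singled out after its values were seen. It read 6.70, 8.93 and 6.57 in 6-OHDA, 6.96, 6.79 and 6.50 in HFS, 6.49, 6.21 and 6.58 in DOPA, and 6.65, 7.05 and 6.92 in DOPA/HFS. The high value belongs to 6-OHDA 2 alone. The DOPA difference of -0.97 (SE 0.49, limma p = 0.0729, adjusted p = 1, exact permutation p = 0.2) was -2.72 on that slide and -0.21 and 0.01 on the others. A single spot measures Efnb1 on each array, so a spot fault and a sample property cannot be told apart.

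Robo1, the main Slit receptor of forebrain axons, read 8.23, 8.51 and 8.17 in 6-OHDA, 8.18, 7.60 and 7.96 in HFS, 8.26, 8.14 and 8.05 in DOPA, and 8.21, 8.29 and 7.82 in DOPA/HFS. HFS 2 was the lowest array, and HFS 1 lay just inside the 6-OHDA range. The HFS difference was -0.39 (SE 0.19, limma p = 0.0610, adjusted p = 0.998, exact permutation p = 0.2), with -0.05, -0.91 and -0.21 by slide, and the average stimulation difference was -0.22 (SE 0.13, limma adjusted p = 0.911). Robo2, measured by 3 probes, differed by -0.12, -0.01 and -0.06 with the brightest.

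Among the Slits, Slit1 read 7.82, 7.10 and 7.74 in 6-OHDA, 7.38, 7.43 and 7.92 in HFS, 7.73, 7.23 and 7.69 in DOPA, and 7.46, 7.13 and 7.85 in DOPA/HFS. The groups overlap almost completely, and the 2 probes of Slit1 correlated at r = 0.77. Its differences were 0.02, -0.01 and -0.08 (SE 0.26). Slit2 differed by 0.21, -0.11 and -0.07 (SE 0.25), and Slit3 by 0.01, 0.18 and 0.11 (SE 0.16).

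**Figure D3:**
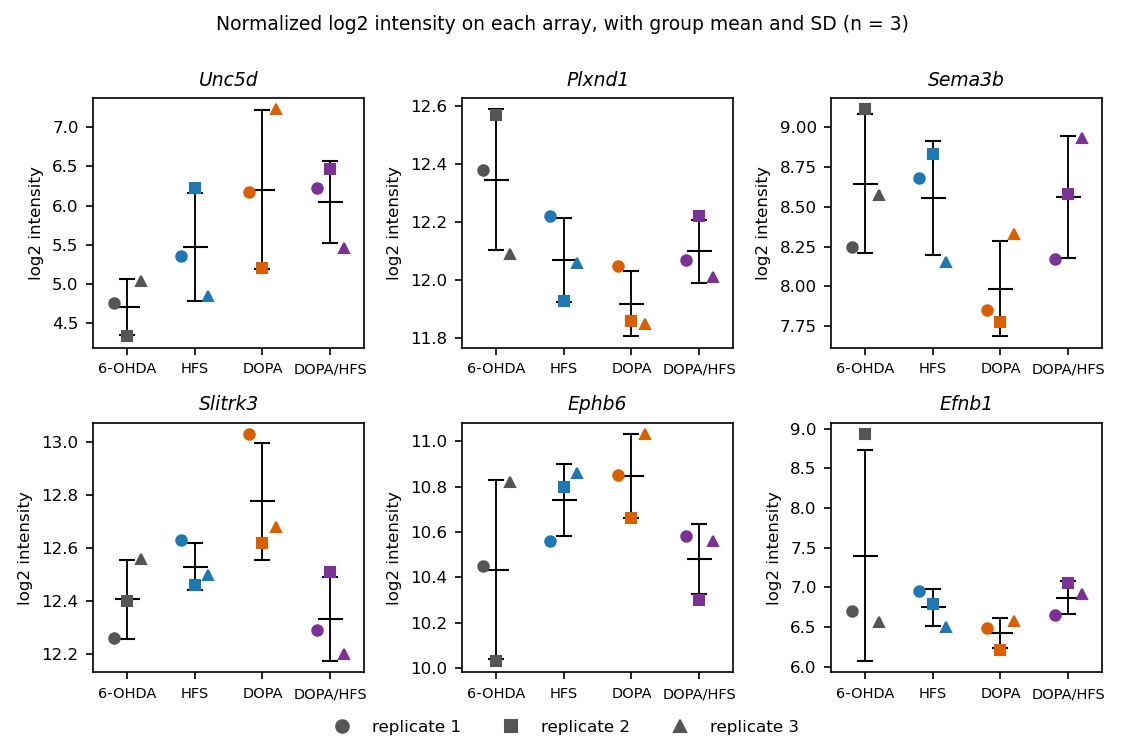
Normalized log2 intensity of 6 guidance genes on each array (symbols, by replicate number) with the group mean and SD of 3 arrays, on a separate scale for each gene. Unc5d is higher on all DOPA and DOPA/HFS arrays than on any 6-OHDA array, Plxnd1 is lower on all DOPA arrays, and the spread of Efnb1 in 6-OHDA comes from replicate 2 at 8.93.

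Class 3 semaphorins are secreted repellents. Sema3b, a ligand of Nrp1 and Nrp2, read 8.25, 9.11 and 8.57 in 6-OHDA, 8.68, 8.83 and 8.15 in HFS, 7.85, 7.78 and 8.33 in DOPA, and 8.17, 8.58 and 8.93 in DOPA/HFS. DOPA held the lowest values, although DOPA 3 lay above 6-OHDA 1. The DOPA difference was -0.66 (SE 0.28, 95% interval -1.27 to -0.04, limma p = 0.0394, adjusted p = 1, exact permutation p = 0.2), a fold of 0.635, with -0.40, -1.33 and -0.24 by slide. Without 6-OHDA 2 it was -0.42 and no longer had an unadjusted p under 0.05. A second Sema3b probe gave -0.55, and the probes correlated at r = 0.67 over 12 arrays. In HFS and DOPA/HFS the brightest probe differed by -0.09 and -0.08.

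Sema3g, a semaphorin of vessels, was above background on 6 arrays and read 5.09, 4.83 and 4.99 in 6-OHDA, 4.83, 4.51 and 4.92 in HFS, 5.09, 4.51 and 4.78 in DOPA, and 5.04, 3.95 and 5.03 in DOPA/HFS. DOPA/HFS 2 was the lowest array and the groups overlap. The DOPA/HFS difference of -0.30 (SE 0.28, limma adjusted p = 1) was 0.06 without DOPA/HFS 2. Sema3c read 2.63 to 2.76 in 6-OHDA and 3.44 to 4.05 in DOPA, but it was not above background on any array, so these readings carry no order.

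Membrane semaphorins act as ligands and, in part, as receptors. Sema4f, a semaphorin found at glutamatergic synapses, read 9.90, 9.51 and 10.07 in 6-OHDA, 9.84, 10.03 and 10.21 in HFS, 10.19, 10.14 and 10.45 in DOPA, and 10.24, 9.63 and 9.89 in DOPA/HFS. The DOPA arrays lay above all 6-OHDA arrays and the other groups overlapped them. The DOPA difference was 0.43 (SE 0.2, limma p = 0.0559, adjusted p = 1, exact permutation p = 0.1), with 0.29, 0.63 and 0.38 by slide, and the interaction was -0.54 (SE 0.28, limma adjusted p = 1).

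Sema5a, whose loss increases synapse number on granule cells, read 7.07, 6.33 and 6.86 in 6-OHDA, 5.95, 6.29 and 6.83 in HFS, 6.89, 6.89 and 6.86 in DOPA, and 6.91, 6.67 and 7.01 in DOPA/HFS. HFS 1 was the lowest array, and the groups overlap with 6-OHDA. The average L-DOPA difference was 0.32 (SE 0.17, limma p = 0.0870, adjusted p = 1, exact permutation p = 0.123). The HFS difference was -0.40 (SE 0.24), of which -1.12 fell on slide 1 and -0.04 and -0.03 on the others, and the second Sema5a probe gave -0.04 in HFS with r = 0.83 between the probes.

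Sema6a, a plexin-A ligand, read 8.10, 8.27 and 7.83 in 6-OHDA, 7.81, 7.94 and 7.63 in HFS, 7.87, 7.61 and 7.77 in DOPA, and 7.74, 7.98 and 8.21 in DOPA/HFS. The HFS and DOPA group means were the lower ones, and their arrays overlapped the others. The interaction was 0.50 (SE 0.24, limma adjusted p = 1). Further Sema6a probes correlated with the brightest at r = -0.29, -0.05 and -0.54, so none correlated with it positively.

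Sema7a, a membrane-anchored ligand of Plxnc1 and integrins, read 7.92, 8.93 and 8.78 in 6-OHDA, 7.51, 8.94 and 8.76 in HFS, 8.95, 9.42 and 8.49 in DOPA, and 8.34, 8.01 and 8.28 in DOPA/HFS. The DOPA/HFS arrays lay below all DOPA arrays but within the 6-OHDA range. Its stimulation difference was -0.44 (SE 0.28, limma adjusted p = 0.911, exact permutation p = 0.158). Sema4g read 8.42, 7.87 and 8.21 in 6-OHDA, 7.93, 8.14 and 7.98 in HFS, 8.33, 8.25 and 8.48 in DOPA, and 8.33, 8.00 and 8.49 in DOPA/HFS. Each treated group overlapped 6-OHDA, while all HFS arrays lay below all DOPA arrays. The average L-DOPA difference of Sema4g was 0.22 (SE 0.13, limma adjusted p = 1, exact permutation p = 0.0779). A second Sema4g probe differed from 6-OHDA by 0.04 in DOPA and -0.04 in DOPA/HFS, where the brightest gave 0.18 and 0.11. These probes correlated at r = -0.50.

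The remaining guidance genes are given by family, as differences from 6-OHDA in the order HFS, DOPA and DOPA/HFS. Membrane semaphorins, 12 genes, ran from -0.40 to 0.25, from -0.32 to 0.44 and from -0.34 to 0.17, with 5, 8 and 6 above 6-OHDA. The 4 EphB receptors ran from -0.41 to 0.31, from -0.06 to 0.41 and from -0.23 to 0.27, with 3 of 4 above 6-OHDA each time. The 3 ephrin-A ligands ran from -0.14 to 0.04, from -0.34 to 0.07 and from -0.16 to 0.13, with 1 of 3 above 6-OHDA each time.

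The signs were mixed within most families. Of the 4 class 3 semaphorins 2, 1 and 1 stood above 6-OHDA, of the 3 Robo receptors 1 each time, and of the 3 Slits 3, 1 and 1. The netrin receptors ran from -0.25 to 1.49 in DOPA, where Unc5d set the upper end.

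The genes matched by name stem include the Slitrk proteins, which resemble Slits in their leucine-rich repeats but organize synapses and are not Slit ligands. Slitrk3, known for building inhibitory synapses, read 12.26, 12.40 and 12.56 in 6-OHDA, 12.63, 12.46 and 12.50 in HFS, 13.03, 12.62 and 12.68 in DOPA, and 12.29, 12.51 and 12.20 in DOPA/HFS. All DOPA arrays lay above all 6-OHDA and all DOPA/HFS arrays. The DOPA difference was 0.37 (SE 0.16, 95% interval 0.03 to 0.71, limma p = 0.0365, adjusted p = 1, exact permutation p = 0.1), with 0.77, 0.22 and 0.12 by slide, and 0.25 without DOPA 1. The interaction, the change with L-DOPA under stimulation minus the change without it, was -0.57 (SE 0.22, 95% interval -1.05 to -0.08, limma adjusted p = 1), with -1.11, -0.17 and -0.42 by slide. A single probe measured Slitrk3.

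Slitrk2 read 6.65, 6.49 and 7.34 in 6-OHDA, 7.10, 7.71 and 7.14 in HFS, 7.25, 6.94 and 7.13 in DOPA, and 6.86, 6.72 and 6.71 in DOPA/HFS. The DOPA/HFS arrays lay below all HFS and all DOPA arrays, and 6-OHDA 3 lay within the HFS range. The interaction was -0.83 (SE 0.33, 95% interval -1.56 to -0.10, limma adjusted p = 1), with -0.84, -1.43 and -0.22 by slide. The HFS difference was 0.49 (SE 0.23, limma p = 0.0605, adjusted p = 0.998, exact permutation p = 0.3), with 0.45, 1.22 and -0.20 by slide.

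Slitrk5, a synaptic organizer whose loss in mice alters corticostriatal transmission, read 13.49, 13.26 and 12.83 in 6-OHDA, 12.85, 12.87 and 12.74 in HFS, 13.08, 13.23 and 12.95 in DOPA, and 12.69, 13.17 and 13.19 in DOPA/HFS. The HFS arrays were close together and low, with 6-OHDA 3 among them. The HFS difference was -0.37 (SE 0.19, limma p = 0.0820, adjusted p = 0.998, exact permutation p = 0.3) and the stimulation difference -0.22 (SE 0.14, limma adjusted p = 0.911). A second Slitrk5 probe gave -0.14 in HFS and correlated with the first at r = -0.35. Slitrk1, Slitrk6 and Slitrk5 are neighbours in the RefSeq order of GRCr8, as are Efna1, Efna3 and Efna4, Sema3a and Sema3d, and Robo4 and Robo3. In HFS, Slitrk5 differed in the opposite direction to the other 4 Slitrk genes, which stood above 6-OHDA without passing any threshold.

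Unc50, a membrane protein of another function that shares only letters with the Unc5 receptors, read 11.33, 11.08 and 11.32 in 6-OHDA, 11.58, 11.34 and 11.02 in HFS, 11.44, 11.48 and 11.41 in DOPA, and 11.37, 11.52 and 11.34 in DOPA/HFS. Both L-DOPA groups lay above all 6-OHDA arrays, with mean differences of 0.20 in DOPA and 0.17 in DOPA/HFS (SE 0.16, limma adjusted p = 1) that are under the fold limit. With scaling to the 75th percentile the latter turned to -0.02.

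Counting genes past the fold limits whose 3 arrays did not overlap the 6-OHDA arrays gave 0 guidance genes in HFS, where 1.86% of all genes were higher and 1.33% lower by this rule. In DOPA it gave 3 higher, Unc5d, Slitrk3 and Sema4f (2.09% of all genes), and 2 lower, Plxnd1 and Plxnc1 (1.77%). Of these, Slitrk3 was matched by name stem only. In DOPA/HFS it gave Unc5d alone as higher (0.963%) and 0 lower (1.54%). Unc5d again met the rule through arrays at background in 6-OHDA. For 3 arrays against 3 the smallest exact permutation p is 0.1, so no comparison of this kind could pass 0.05 for a single gene.

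Within slides, 9 guidance genes were higher than 6-OHDA on all 3 slides in DOPA (15.8%, against 10.3% of all genes) and 8 were lower (14%, against 12.1%). In HFS 4 were higher (7.02%, against 12%) and 12 lower (21.1%, against 14.4%), and in DOPA/HFS 3 were higher (5.26%, against 6.9%) and 2 lower (3.51%, against 9.62%). The guidance shares in DOPA/HFS are of all 57 genes, although Epha5, Ephb2 and Sema3f lack a value and could not count. The shares of all genes there cover only the 18374 with complete values. The position of an array on its slide went with its group, so position and treatment cannot be told apart.

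Where a gene had more than 1 probe above background, the probes often differed. Over 21 pairs from 17 guidance genes the correlation across arrays had a median of 0.27, ran from -0.54 to 0.84 and was below 0 for 8 pairs. For the brightest and second brightest probe with complete values, 15 guidance genes had a median r of 0.27 with 33.3% below 0, beside 0.45 and 23.5% for 2717 genes overall. The sign of the difference from 6-OHDA matched in 9 of 21 pairs for HFS, 15 of 21 for DOPA and 12 of 21 for DOPA/HFS. Probes can report different transcript ends, and which of them stands for the gene is not known from these data.

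**Figure D4:**
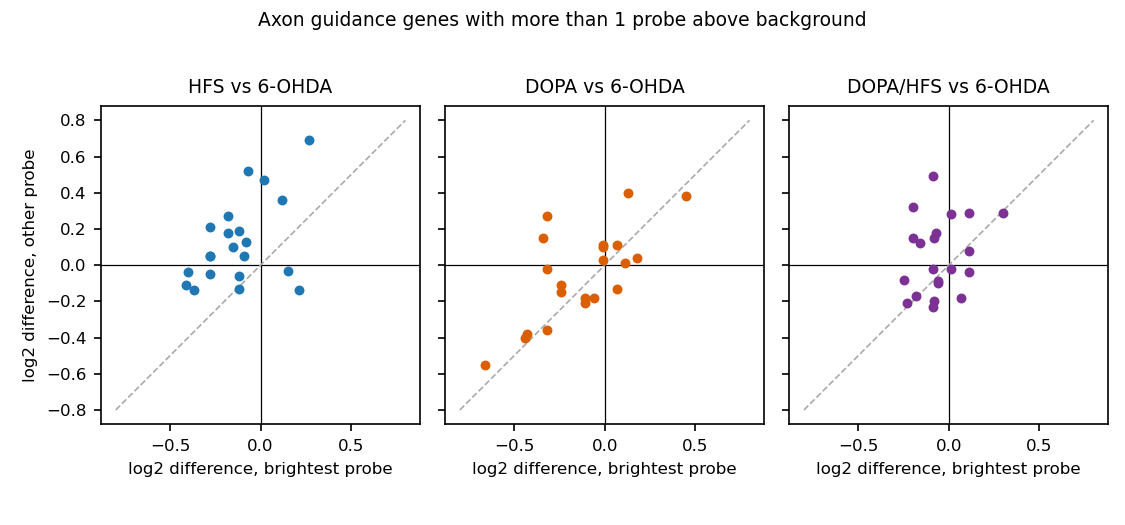
Log2 difference from 6-OHDA with the brightest probe (horizontal) against another probe of the same gene (vertical), for 21 probe pairs of 17 guidance genes in each comparison, with the line of equality dashed. In DOPA the 3 lowest pairs, for Sema3b, Plxnc1 and Plxnd1, lie near the line, whereas in HFS 12 of 21 pairs do not share a sign.

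Downstream of the receptors, 50 of 62 other pathway genes (collapsin response mediators, small GTPase regulators, kinases, adhesion partners and further cues) were tested, and 0 were called in any contrast. At an unadjusted limma p under 0.05, 2 of 50 passed with HFS (4%, beside 2.34% of all genes), 2 with DOPA (4%, beside 2.59%) and 1 with the combination (2%, beside 2.76%). For the L-DOPA average 2 passed (4%, beside 2.73%) and for stimulation 1 (2%, beside 4.35%). In HFS these were Gsk3b, a kinase that controls growth cone microtubules (0.52, SE 0.21), and Neo1, the Dcc homologue neogenin (0.70, SE 0.28), each with a limma adjusted p of 0.998. In DOPA these were Gsk3b (0.50, SE 0.21) and the chemokine guidance cue Cxcl12 (0.43, SE 0.19), with limma adjusted p = 1.

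For the interaction 4 of 50 passed (8%, beside 1.98% of all genes), all negative. Gsk3b read 9.61, 9.93 and 10.33 in 6-OHDA, 10.25, 10.63 and 10.56 in HFS, 10.47, 10.67 and 10.22 in DOPA, and 9.97, 9.77 and 9.63 in DOPA/HFS. The DOPA/HFS arrays lay below all HFS and all DOPA arrays and within the 6-OHDA range. Its interaction was -1.19 (SE 0.29, limma adjusted p = 1), and those of Trio, Arhgef12 and Cxcl12 were -1.07, -0.70 and -0.66.

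In DOPA/HFS Rock1, a kinase that acts in growth cone collapse, differed by -0.45 (SE 0.16, limma adjusted p = 1). The next lowest p-values belonged to Trio (0.55), Rnd1 (-0.44) and Arhgef12 (0.31) in HFS, to Mical1 (-0.35), Cntn4 (0.37) and Mical3 (0.68) in DOPA, and to Mical1 (-0.42), Arhgef11 (0.38), Trio (-0.43) and Pak1 (0.28) in DOPA/HFS, all with limma adjusted p of 0.998 or 1. The median differences of the 50 genes from 6-OHDA were 0.03, -0.04 and -0.06, and over all genes 0.01, -0.01 and -0.01.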

How the data were processed

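Cy3-labelled striatal RNA of 12 samples was hybridized to 1-colour Agilent 44K rat arrays. The authors deposited scanner files whose intensity column is the processed signal of Agilent Feature Extraction 9.1 (background-subtracted, not normalized between arrays), and a table of log2 values that the authors had normalized further, which served as an alternative. Its scale and centring are not given in the sources used here, and its columns ranked probes like the scanner files (Spearman 0.9981 to 0.9992).

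Control spots (1639 of 45018) and outlier-flagged spots were left out, the signal was taken to log2 and quantile normalized, and probes well above background on at least a 0.4 share of arrays were kept, with the brightest probe per gene. No array column went unmapped. Accessions of 10735 probes, 22 of them guidance probes, matched RefSeq for GRCr8, and guidance genes kept the name in the files. lmFit and eBayes of limma 3.58.1 (R 4.3.3, data.table, version 1.17.8) were fitted to all 4 groups and 20460 genes together with Benjamini-Hochberg adjustment, and the code was tested on simulated data. Single values were tested with two-sided exact permutation tests. Array number limits the precision.

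The guidance genes, the pathway and marker lists and the tests were chosen with earlier results of these data known. Members given with values on every array are the 6 with the lowest p in each contrast, any called, any past the fold limits without overlapping 6-OHDA in at least 2 comparisons (Unc5d), and the textbook forebrain guidance genes Dcc, Nrp1, Nrp2, Epha5, Efnb3, Plxna4, Sema3a, Slit1, Robo1, Ntn1 and Unc5c. The other pathway genes named are the 5 with the lowest p per comparison. Arrays with the same replicate number shared a slide. Alternatives covered scaling, background correction, the deposited table, detection filters, probe choice, outlier spots, the slide as a block, the arrays fitted, thresholds and each array left out.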

Additional observations from a re-analysis of the deposited data

How the results depend on the processing

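The count of 0 guidance genes called held in all 6 contrasts under every alternative run, including scaling to the 75th percentile, normexp, the deposited table, other detection filters, the mean of all probes, outlier spots kept, the adjusted threshold of 0.05 and each array left out in turn. With the replicate number as a block the count was also 0, the Unc5d difference in DOPA stayed at 1.49 (limma adjusted p = 1), and the block changed no other adjusted call. At an unadjusted p under 0.05 the block lost Slitrk3 and gained Sema4f, Ephb6 and Unc5a in DOPA (6 genes in place of 4), and gained Unc5a for L-DOPA (2 in place of 1). Same-numbered arrays deviated together with r from -0.29 to 0.48 (median 0.115, 18 pairs) and others with -0.45 to 0.54 (median -0.07, 36 pairs). Of the 12 arrays, 5 correlated best with their own number. Pairs of number 2 arrays, 6-OHDA 2 included, were all positive (0.07 to 0.43), while those of numbers 1 and 3 had both signs. Whether the numbers pair the samples beyond the shared slide was not tested.

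The count past the fold limits without overlap, whose alternatives were chosen after seeing the data, was 1 in place of 0 for HFS with 75th percentile scaling and with no filter on dim probes, and 0 in place of 1 for DOPA/HFS in the deposited table and with outlier spots kept. Scaling to the 75th percentile moved the DOPA/HFS median of all genes to -0.18 and of the guidance genes to -0.17, and the deposited table moved them to -0.12 and -0.13. With outlier spots kept the guidance median was -0.16 in DOPA/HFS and -0.16 for the interaction. Without 6-OHDA 2 the guidance median was -0.12 in DOPA and 0.10 for the interaction, and without 6-OHDA 3 the latter was -0.17. Unc50 in DOPA/HFS reversed to -0.02 with 75th percentile scaling. Sema3g in DOPA/HFS ranged from -0.48 to 0.06 as arrays were left out. For the 6 guidance genes with the lowest p in each contrast, 305 of 306 values under other settings kept their direction. With 1 array left out, 431 of 432 did. Because these genes were picked by p from mostly the same readings, a kept direction was largely set beforehand and is not support. Unadjusted p under 0.05 was lost without 1 array for Plxnd1 in DOPA in 2 of 12 cases, Slitrk3 in 3, Sema3b in 5 and Unc5d in 1, for Unc5d in DOPA/HFS in 3, and for the interaction of Slitrk3 in 4, Slitrk2 in 7 and Ephb6 in 7. Unc5d in DOPA/HFS also lost it in the deposited table (0.43) and with outlier spots kept (1.16), and its L-DOPA difference of 1.03 was 0.38 in the deposited table. The causes were not tested. For probes near background, signal over background limits every difference.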
